A study of Mus musculus with 12 samples.

Results

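The 9 genes described here encode carriers that move organic anions, organic cations, carnitine, urate or sulfate across the membranes of proximal tubule cells. They were chosen by gene symbol (Slc22a2, Slc22a4, Slc22a5, Slc22a6, Slc22a8, Slc22a12, Slc47a1, Slco1a6 and Slc26a1), and all 9 were found, each of them once, among the 36186 genes of the deposited count table. RNA from whole kidneys of mouse embryos of mixed background at E18.5 was sequenced in 12 libraries, 3 from each of 4 genotypes. Wild type kidneys gave libraries 30, 37 and 55. Hoxa-/- Hoxc+/- kidneys (libraries 20, 31 and 33) carried mutant Hoxa9, Hoxa10 and Hoxa11 on both chromosomes and mutant Hoxc9, Hoxc10 and Hoxc11 on 1. Hoxa+/- Hoxc-/- kidneys (libraries AC38, AC110 and AC115, without the letters in the plots) carried the Hoxa mutations on 1 chromosome and the Hoxc mutations on both. Hoxa-/- Hoxc-/- kidneys (libraries 24, 27 and 29, called double mutants here) were labelled as homozygous at all 6 genes, whereas the study's own text describes its sequenced mutants as keeping 1 or both wild type copies of Hoxa11. It also reports that embryos homozygous at all 6 genes had no kidney that could be found at this age, which is at odds with the label. The mutant alleles are frameshifts and leave the genes in place. RNA of Hoxa9, Hoxa10, Hoxa11, Hoxc9, Hoxc10 and Hoxc11 was counted in every genotype, so the labels could not be checked by its absence. The labels number each library and do not say whether each came from a separate embryo, and they give no embryo sex. Xist was between 60.1 and 336 CPM in Hoxa-/- Hoxc+/- 31 and 33, Hoxa+/- Hoxc-/- AC110 and double mutants 27 and 29, and at most 0.138 in the other 7 libraries, which include all 3 of wild type. Ddx3y, on the Y chromosome, was at 54.2 CPM or more in those 7 and at most 0.0824 in the 5. Sex and genotype are therefore partly confounded in the comparisons with wild type, and with Xist as covariate (edgeR) 0 carriers passed in any comparison and 0 had an unadjusted p under 0.05. The same counts were 0 with all 12 libraries in the fit and no Xist, so they say nothing about sex. The Hoxa+/- Hoxc-/- libraries were sequenced in a run of their own and the other 9 in another run, so that this genotype and its run cannot be told apart.

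Proximal tubule cells clear the blood of drugs, toxins and metabolic waste by taking up organic ions across the basolateral membrane and releasing them into the urine across the brush border. Slc22a6 and Slc22a8 are the basolateral exchangers that take up organic anions in return for dicarboxylates, and Slc22a12 is the brush border exchanger that reabsorbs urate. Slc22a2 takes up organic cations on the blood side, Slc47a1 extrudes them into the lumen in exchange for protons, Slc22a5 recovers carnitine with sodium, Slc22a4 carries ergothioneine, Slc26a1 is a basolateral sulfate exchanger and Slco1a6 belongs to the organic anion transporting polypeptides.

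Counts assigned to genes ranged from 28616877 in Hoxa-/- Hoxc+/- 20 to 47067903 in Hoxa+/- Hoxc-/- AC110. Levels are given as CPM, counts over the library total scaled by the TMM method over the 12 libraries. A level of 3 counts, taken as the floor, lay between 0.0637 and 0.105 CPM over the library totals before TMM scaling. This floor covers counting error only, and its place among the scaled levels is approximate. The tissue was checked with 13 markers of the proximal tubule (Lrp2, Cubn, Amn, Vil1, Ggt1, Anpep, Aqp1, Slc34a1, Slc5a2, Gatm, Miox, Fbp1 and Pck1), of which 0 were at 0 in any library. Their summed level was 4597 CPM in wild type 30, 2360.2 in wild type 37 and 1925 in wild type 55. In Hoxa-/- Hoxc+/- kidneys it was 844 in library 20, 4039 in 31 and 5303 in 33. In Hoxa+/- Hoxc-/- kidneys it was 4895 in AC38, 2921 in AC110 and 2476 in AC115, and in double mutants 4407 in 24, 5610.2 in 27 and 3634 in 29. Wild type 30 was therefore the highest of its group, Hoxa-/- Hoxc+/- 20 was the lowest of the 12 libraries, and all 4 genotypes overlapped. Lrp2, the endocytic receptor megalin, was the most abundant of the 13 markers in each library other than Hoxa-/- Hoxc+/- 20 (Anpep), Hoxa-/- Hoxc+/- 33 and Hoxa+/- Hoxc-/- AC38 (Slc34a1). In RNA from whole kidneys, fewer proximal tubule cells and less of a transcript per cell cannot be told apart.

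Per length, as RPKM (CPM over the length of the exons in kb), the levels of the 9 carriers in wild type kidneys followed the order Slc22a6 (44.0 ± 31.3, mean ± SD, n = 3), Slc22a12 (25.9 ± 13.6), Slc47a1 (23.5 ± 7.65), Slc22a2 (17.5 ± 11.3), Slc22a5 (12.8 ± 2.76), Slc22a8 (11.8 ± 4.00), Slco1a6 (10.2 ± 3.47), Slc26a1 (7.82 ± 6.20) and Slc22a4 (1.09 ± 0.283). Each neighbouring pair from Slc22a6 down to Slc26a1 lay within its SDs, and Slc22a4 alone stood below the rest by more than the spread between replicates. In double mutants Slc22a6 was again highest (79.2 ± 24.04 RPKM) and Slc22a4 again lowest (1.01 ± 0.175), while Slco1a6, at 40.1 ± 30.05, stood next to Slc22a12 (47.3 ± 10.3) and Slc47a1 (35.9 ± 5.66).

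Among the anion exchangers, Slc22a6 (Entrez gene 18399, chr19:8617996-8628299 of mouse build GRCm38) was measured at 318 CPM in wild type 30, 119.55 in wild type 37 and 88.5 in wild type 55. The mutant libraries gave 44.5, 231 and 407 CPM in Hoxa-/- Hoxc+/- 20, 31 and 33, then 395, 142 and 144 in Hoxa+/- Hoxc-/- AC38, AC110 and AC115, then 319.8, 409 and 217 in double mutants 24, 27 and 29. Wild type 30 thus stood with double mutant 24 and above double mutant 29, apart from the other wild type libraries, so the groups overlapped. Slc22a8 (Entrez gene 19879) lies 6.16 kb from Slc22a6 on the same strand, at chr19:8591254-8611835, and was at 63.3, 42.2 and 32.7 CPM in wild type 30, 37 and 55. It reached 24.5, 44.7 and 77.2 CPM in Hoxa-/- Hoxc+/- 20, 31 and 33, 65.0, 34.4 and 43.3 in Hoxa+/- Hoxc-/- AC38, AC110 and AC115, and 45.8, 56.8 and 34.5 in double mutants 24, 27 and 29. Its double mutant values lay inside the wild type range, although the libraries with high and low Slc22a6 were largely those with high and low Slc22a8. The highest over the lowest of the 3 wild type libraries was 3.59-fold for Slc22a6 and 1.93-fold for Slc22a8.

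Promoter windows of this pair are shown because the genes are neighbours whose levels were high and low in largely the same libraries. RefSeq promoter windows of build GRCm38.p6, with 250 bases before and 50 after an annotated start, were given for 8 of the 9 genes (9 windows, since Slc26a1 has more than 1), and Slc47a1 has none. The windows of Slc22a8, Slc22a4 and Slc26a1 lie wholly inside the gene spans given here, so they do not surround the outermost start of the gene. The HNF4 letters CAAAGTC, searched on either strand, were present in 4.44% of 32851 such windows and in 0 of these 9. The HNF1 letters GTTAAT are present in the windows of Slc22a6 and Slc22a8 printed below. They are absent from both strands of the printed windows of Slc22a12 and Slco1a6. How common GTTAAT is among all windows was not tested, so its presence in this pair cannot be weighed. The windows of Slc22a6 (plus strand, chr19:8617746-8618045) and Slc22a8 (plus strand, chr19:8592932-8593231) are written 5' to 3' on the strand of the gene.
Slc22a6: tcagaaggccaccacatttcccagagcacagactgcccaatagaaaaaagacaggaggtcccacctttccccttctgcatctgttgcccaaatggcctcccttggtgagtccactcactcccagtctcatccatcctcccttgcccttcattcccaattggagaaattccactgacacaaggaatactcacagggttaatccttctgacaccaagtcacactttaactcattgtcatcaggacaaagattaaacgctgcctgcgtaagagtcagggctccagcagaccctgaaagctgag
Slc22a8: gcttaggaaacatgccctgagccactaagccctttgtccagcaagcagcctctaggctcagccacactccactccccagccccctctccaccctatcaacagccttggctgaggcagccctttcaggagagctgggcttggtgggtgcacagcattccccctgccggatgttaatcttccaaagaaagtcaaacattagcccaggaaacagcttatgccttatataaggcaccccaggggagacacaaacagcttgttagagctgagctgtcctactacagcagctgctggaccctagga
The search describes the letters of a window and not where a factor binds.

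Slc22a12 (Entrez gene 20521, chr19:6535854-6543070), the urate exchanger, gave 93.7, 46.3 and 35.8 CPM in wild type 30, 37 and 55. It stood at 14.6, 71.9 and 111 CPM in Hoxa-/- Hoxc+/- 20, 31 and 33, at 126, 69.9 and 60.1 in Hoxa+/- Hoxc-/- AC38, AC110 and AC115, and at 109, 129 and 82.5 in double mutants 24, 27 and 29. Double mutant 29, the lowest of its group, was below wild type 30 and above wild type 37 and 55. The windows of Slc22a12 (minus strand, chr19:6543021-6543320) and of Slco1a6 (minus strand, chr6:142186100-142186399) are printed beside the pair above, as the RNA level of Slc22a12 followed that of Slc22a6 over the libraries and that of Slco1a6 departed from it. Base composition differed as well, with G and C making up 150 of the 300 bases of both the Slc22a12 and the Slc22a6 windows, 37.3% of that of Slco1a6, and 72.7% and 69.0% of those of Slc22a5 and Slc22a4.
Slc22a12: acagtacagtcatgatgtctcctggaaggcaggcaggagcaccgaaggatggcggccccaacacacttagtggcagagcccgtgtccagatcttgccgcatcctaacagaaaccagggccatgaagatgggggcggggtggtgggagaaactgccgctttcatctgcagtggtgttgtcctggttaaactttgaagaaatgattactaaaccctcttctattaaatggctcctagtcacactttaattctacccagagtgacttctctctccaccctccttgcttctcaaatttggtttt
Slco1a6: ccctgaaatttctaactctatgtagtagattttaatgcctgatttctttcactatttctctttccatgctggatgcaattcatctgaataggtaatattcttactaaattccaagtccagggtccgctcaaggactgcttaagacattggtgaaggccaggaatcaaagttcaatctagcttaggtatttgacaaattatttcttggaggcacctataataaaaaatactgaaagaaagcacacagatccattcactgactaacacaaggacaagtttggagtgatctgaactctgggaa

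For the cation route, Slc22a2 (Entrez gene 20518, chr17:12584189-12628489), the basolateral entry step, was at 75.2, 31.8 and 22.9 CPM in wild type 30, 37 and 55. Mutant kidneys gave 13.8, 57.7 and 91.3 CPM in Hoxa-/- Hoxc+/- 20, 31 and 33, 83.5, 38.3 and 40.6 in Hoxa+/- Hoxc-/- AC38, AC110 and AC115, and 71.3, 109 and 53.8 in double mutants 24, 27 and 29. Its 3 double mutant values surround that of wild type 30 and lie above wild type 37 and 55. The exit step, Slc47a1 (Entrez gene 67473, chr11:61343400-61378842), was at 108, 72.2 and 58.1 CPM in wild type 30, 37 and 55. It was at 31.5, 99.9 and 146 CPM in Hoxa-/- Hoxc+/- 20, 31 and 33, at 132, 75.7 and 60.6 in Hoxa+/- Hoxc-/- AC38, AC110 and AC115, and at 119, 142 and 104 in double mutants 24, 27 and 29. Only double mutant 29 overlapped with wild type, and only with library 30. The carnitine carrier Slc22a5 (Entrez gene 20520, chr11:53864542-53891796) was at 48.8, 36.5 and 32.5 CPM in wild type 30, 37 and 55, from 23.1 to 53.4 in Hoxa-/- Hoxc+/-, from 34.4 to 57.8 in Hoxa+/- Hoxc-/- and from 38.6 to 53.5 in double mutants. Its neighbour Slc22a4 (Entrez gene 30805, chr11:53983115-54030040), the ergothioneine carrier, was at 3.58, 2.58 and 2.18 CPM in wild type 30, 37 and 55, from 1.62 to 2.82 in Hoxa+/- Hoxc-/- and from 2.25 to 3.08 in double mutants, with its lowest value, 0.618, in Hoxa-/- Hoxc+/- 20. Both genes overlapped between wild type and double mutants.

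Slc26a1 (Entrez gene 231583, chr5:108669878-108678380), the sulfate exchanger, varied most among the wild type kidneys, with 60.6 CPM in library 30, 19.7 in 37 and 14.8 in 55. It was at 5.14, 47.4 and 76.5 CPM in Hoxa-/- Hoxc+/- 20, 31 and 33, at 89.7, 40.8 and 22.4 in Hoxa+/- Hoxc-/- AC38, AC110 and AC115, and at 51.2, 75.9 and 43.1 in double mutants 24, 27 and 29. Wild type 30 lay within the range of the double mutants, and wild type 37 and 55 below it. Slc26a1 shares 141 exon bases, 3.48% of its exon length, with Idua on the opposite strand, and the strand rule of the counting is not stated. Idua, a lysosomal enzyme gene, stayed between 9.24 and 13.4 CPM in the 12 libraries and did not have the spread of Slc26a1.

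Slco1a6 (Entrez gene 28254, chr6:142085761-142186177) had a pattern of its own, with 26.5 CPM in wild type 30, 52.8 in 37 and 37.1 in 55. It was at 23.6, 147 and 106 CPM in Hoxa-/- Hoxc+/- 20, 31 and 33, at 184, 51.3 and 11.0 in Hoxa+/- Hoxc-/- AC38, AC110 and AC115, and at 233, 203 and 21.5 in double mutants 24, 27 and 29. Here wild type 30 was the lowest wild type library and not the highest, and the double mutants split into 2 libraries above every wild type value and 1 below them all. The highest over the lowest library was 10.8-fold in double mutants and 16.7-fold in Hoxa+/- Hoxc-/-, against 1.99-fold in wild type.

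**Figure D1:**
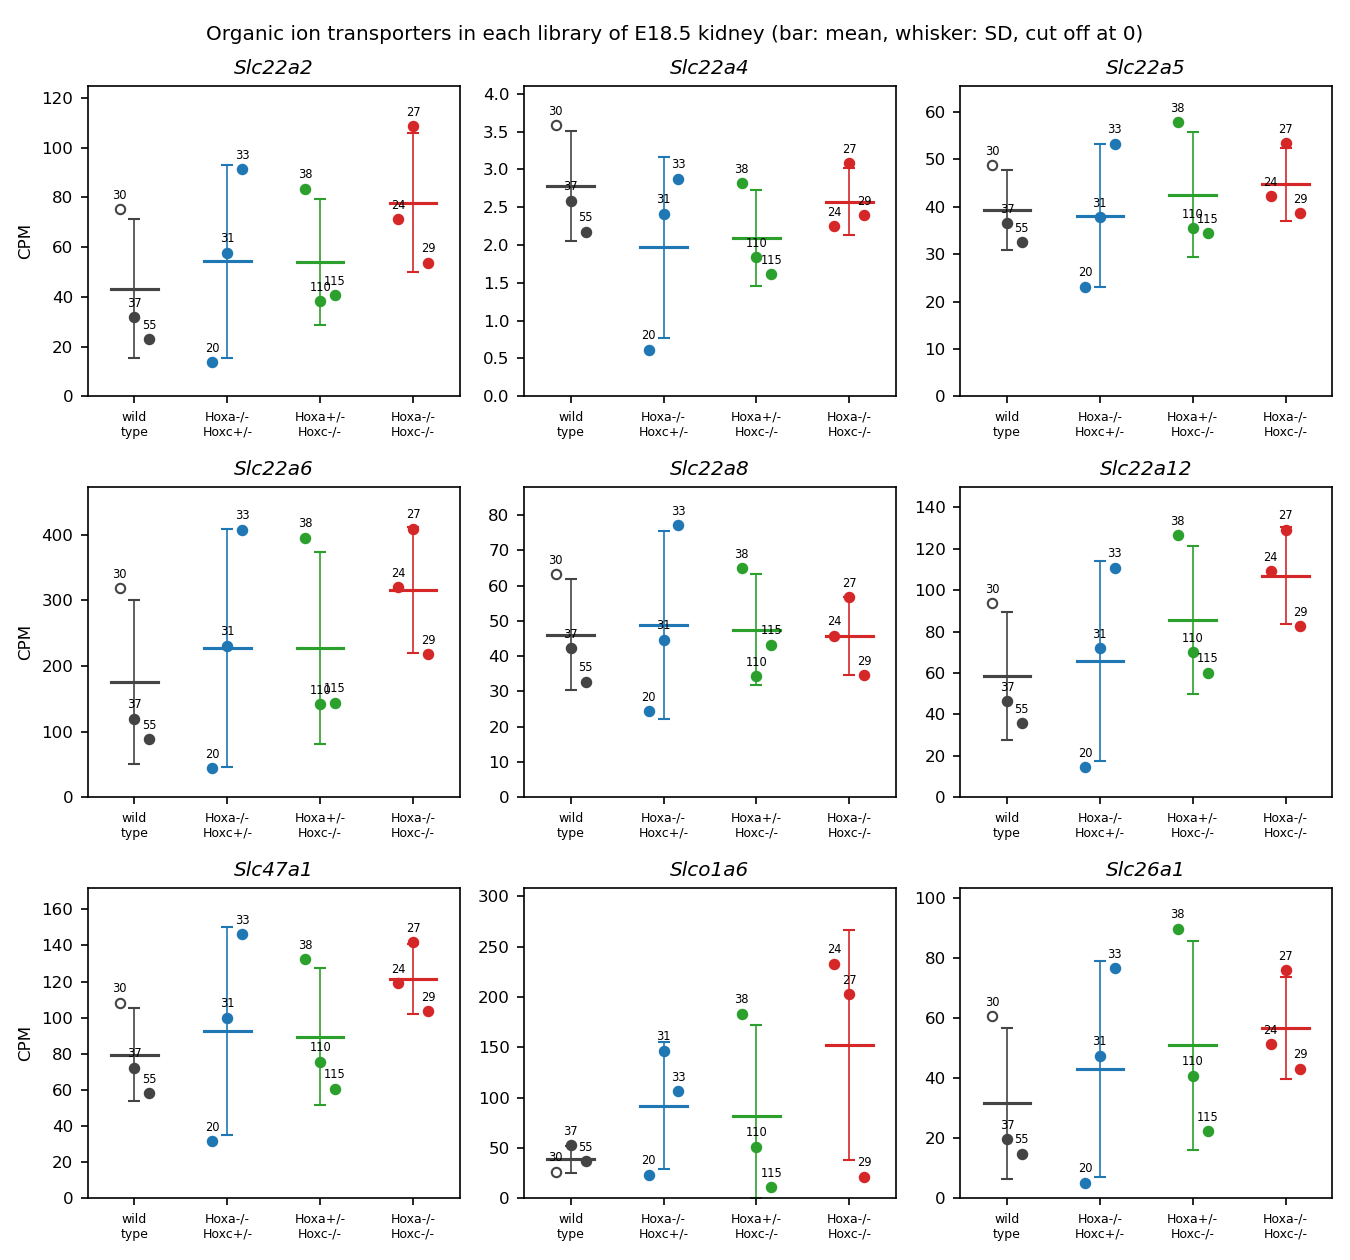
Level of each of the 9 carriers (CPM) in each of the 12 libraries by genotype, with points for libraries, bars for means and whiskers for SD (n = 3, cut off at 0), and wild type 30 drawn open. Wild type 30 is the highest wild type library in each panel other than that of Slco1a6, and Hoxa-/- Hoxc+/- 20 the lowest library of its genotype throughout.

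Set against the mean of wild type 37 and 55, wild type 30 held 3.51 times as much Slc26a1, 3.06 times as much Slc22a6, 2.75 times as much Slc22a2 and 2.28 times as much Slc22a12. The ratio was 1.69 for Slc22a8, 1.66 for Slc47a1, 1.504 for Slc22a4, 1.41 for Slc22a5 and 0.589 for Slco1a6. It exceeded 2 for 4 of the 9 carriers and for 10 of the 13 proximal tubule markers, against 277 of the 14134 genes with at least 1 CPM in wild type (1.96%). The marker with the largest ratio was Slc5a2, the glucose carrier of the early proximal tubule, at 5.47. This library was singled out for these genes, so the counts describe it and test nothing, and the source of its levels was not tested.

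This relation was followed over all libraries with a proximal tubule score, the mean log2 CPM of the 13 markers, which ran from 5.235 in Hoxa-/- Hoxc+/- 20 to 8.13 in Hoxa-/- Hoxc+/- 33. Over the 12 libraries the log2 level of Slc22a6 had a Pearson r of 0.980 and a Spearman rho of 0.965 with the score, and Slc26a1, Slc47a1, Slc22a2, Slc22a12 and Slc22a5 had r of 0.978, 0.977, 0.975, 0.969 and 0.961. For Slc22a4 r was 0.9 (rho 0.804) and for Slc22a8 0.895 (rho 0.916). Slco1a6 followed the score less closely, with r of 0.563 and rho of 0.573. Without the 2 libraries farthest from the median score (Hoxa-/- Hoxc+/- 20 and wild type 55), r was 0.972 for Slc22a6, 0.891 for Slc22a12, 0.837 for Slc22a8, 0.775 for Slc22a4 and 0.557 for Slco1a6 (n = 10). Within the 9 libraries of 1 run it was 0.979, 0.976, 0.897, 0.903 and 0.537 for the same genes, and the other run holds too few libraries for a value. These 9 relations are given as descriptions without a p, and their points share tissue, preparation and scaling. Among the 28 pairs of the 8 carriers other than Slco1a6, r lay between 0.776 and 0.994 with a median of 0.934, and between Slco1a6 and each of the 8 it lay between 0.431 and 0.660 with a median of 0.594.

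**Figure D2:**
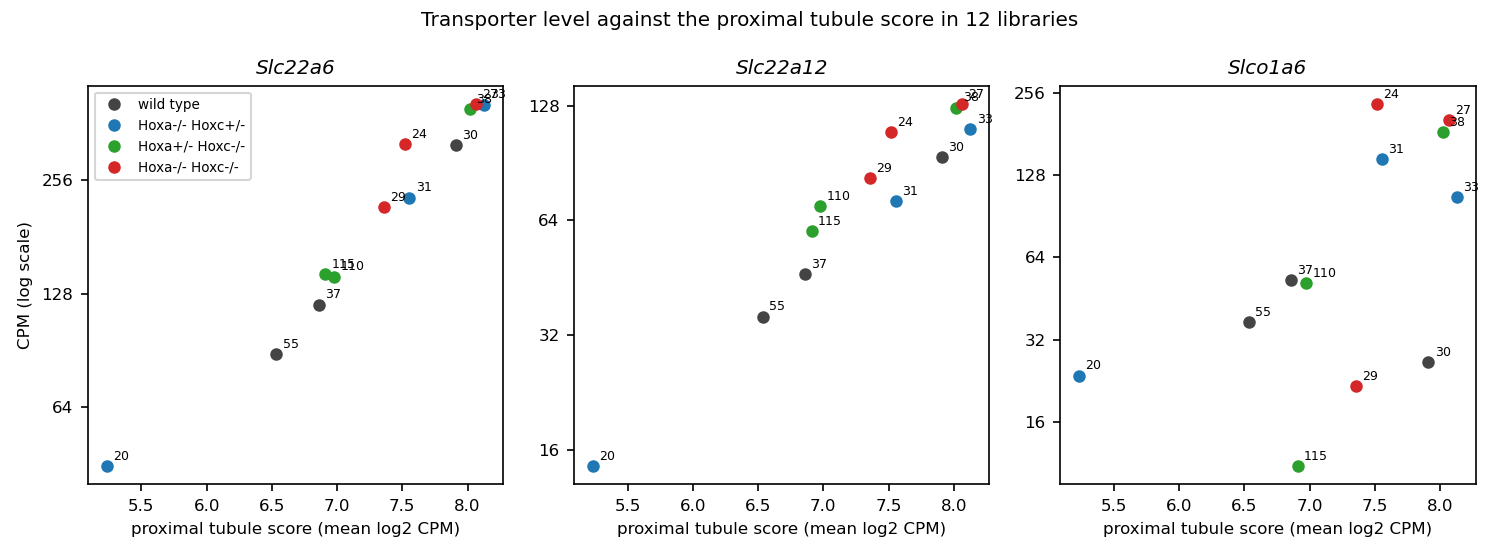
Levels of Slc22a6, Slc22a12 and Slco1a6 (CPM, log scale) against the proximal tubule score (mean log2 CPM of 13 markers) in 12 libraries, numbered and coloured by genotype. Slc22a6 and Slc22a12 climb with the score, whereas Slco1a6 is lower in wild type 30, double mutant 29 and Hoxa+/- Hoxc-/- AC115 than in other libraries of similar score.

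The profile of the carriers, the mean of their centred and scaled log2 levels, was matched most closely over the 12 libraries by Gm8615 (r 0.991), Pipox (0.991), Ehhadh (0.990), Tcn2 (0.990), Sord (0.990), Pbld1 (0.989), Eps8 (0.989) and Tinag (0.988). Pipox and Ehhadh encode peroxisomal enzymes and Sord encodes sorbitol dehydrogenase. In all, 843 of 14214 genes outside the 9 reached an r of 0.9, so a likeness of this size was common in these libraries.

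The comparison of double mutants with wild type asks how carrier levels differ when mutant Hoxa and Hoxc genes are combined, in animals that by the study's text keep wild type Hoxa11. Mean levels were higher in double mutants for the basolateral anion exchanger Slc22a6 (315 ± 95.7 against 175 ± 125 CPM, mean ± SD, n = 3 each), the urate exchanger Slc22a12 (107 ± 23.4 against 58.6 ± 30.8) and the cation carrier Slc22a2 (77.9 ± 28.1 against 43.3 ± 28.0). They were also higher for the cation extruder Slc47a1 (121 ± 19.1 against 79.55 ± 25.9), the sulfate exchanger Slc26a1 (56.7 ± 17.1 against 31.7 ± 25.1) and Slco1a6 (153 ± 114 against 38.8 ± 13.2). Slc22a8 (45.7 ± 11.1 against 46.1 ± 15.6), Slc22a5 (44.8 ± 7.73 against 39.3 ± 8.49) and Slc22a4 (2.57 ± 0.447 against 2.78 ± 0.722) differed by less than either SD. The differences of Slco1a6 and Slc26a1 were also smaller than the larger of their SDs. None of the 9 carriers passed the test, and for 0 of the 9 did the 3 double mutant values lie clear of the 3 wild type values, where 38.1% of the 15839 genes tested had groups that do not overlap.

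By edgeR (quasi-likelihood F test, p adjusted by the Benjamini-Hochberg method over each gene in the fit), 2171 of 15839 genes passed (13.7%), 999 of them higher (6.31%) and 1172 lower (7.40%) in double mutants, and 5131 had an unadjusted p under 0.05. Of the carriers 0 passed and 3 had an unadjusted p under 0.05 (Slco1a6, Slc47a1 and Slc22a12). Their median log2 fold change was 0.84, beside -0.00805 for all genes tested, and 7 of 9 were positive. By edgeR the log2 fold change of Slco1a6 was 1.97 (SE 0.72, adjusted p 0.107), with 2 of 3 double mutants above all wild type libraries. Slc22a12 had 0.87 (SE 0.34, adjusted p 0.123) and Slc47a1 0.61 (SE 0.22, adjusted p 0.104) by edgeR, each with 2 of 3 double mutants above all wild type libraries. For Slc22a6 edgeR gave 0.85 (SE 0.46, adjusted p 0.239), for Slc22a2 0.85 (SE 0.44, adjusted p 0.219) and for Slc26a1 0.84 (SE 0.50, adjusted p 0.272), and all 3 double mutants were above wild type 37 and 55 for each. The estimates were 0.19 for Slc22a5, -0.012 for Slc22a8 and -0.11 for Slc22a4. DESeq2 called 3380 genes (21.3%) and 1 carrier, Slc47a1, at 0.62 (SE 0.22, adjusted p 0.0233, from 0.012 to 0.787 over the 16 alternatives), and limma on the deposited log2 values called 1215 genes and 0 carriers.

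Leaving out 1 of 2 libraries added calls of carriers by edgeR. Without wild type 30, 5 of the 9 carriers passed, all of them higher in double mutants, where 3386 of 16080 genes passed (21.1%), 1957 higher (12.2%) and 1429 lower (8.89%). By edgeR on these 5 libraries Slc26a1 had a log2 fold change of 1.72 (SE 0.26, adjusted p 0.00951, from 0.00951 to 0.881 over the 16 alternatives) and Slc22a6 1.60 (SE 0.27, adjusted p 0.0119, from 0.0119 to 0.767). In the same edgeR fit Slc22a2 had 1.51 (SE 0.30, adjusted p 0.0178, range 0.014 to 0.750), Slc22a12 1.38 (SE 0.20, adjusted p 0.00897, range 0.00443 to 0.711) and Slc47a1 0.90 (SE 0.15, adjusted p 0.0120, range 0.012 to 0.787). For each of the 5 genes all 3 double mutants were above both remaining wild type libraries. The median of the 9 was 1.38 and all 9 were positive, beside -0.0054 for all genes. Without double mutant 29, 1644 genes passed (10.2%) and Slco1a6 was the 1 carrier among them, at 2.49 (SE 0.26, edgeR adjusted p 0.00503, range 0.00503 to 0.723), with both remaining double mutants above all wild type libraries. Wild type 30 and double mutant 29 stand out by the carrier levels themselves, so leaving out either one raises these estimates by construction, and the calls gained in this way say nothing about the genotype. The count of genes was 535 without wild type 37, 633 without wild type 55, 793 without double mutant 24 and 1101 without double mutant 27, each with 0 carriers.

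**Figure D3:**
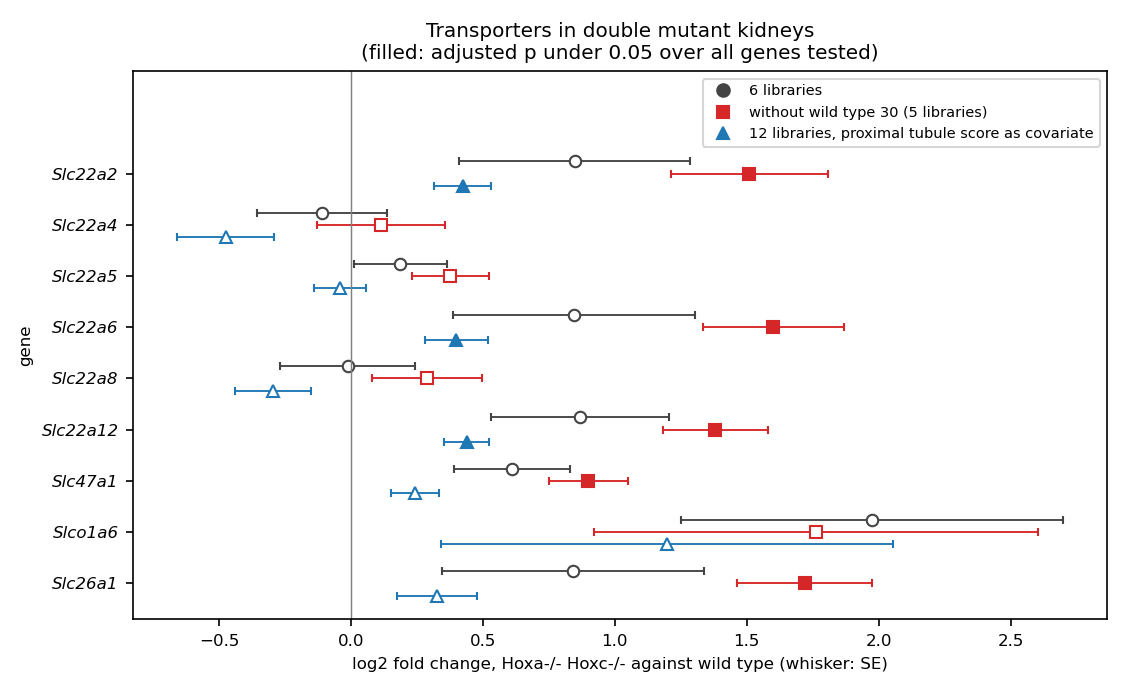
Log2 fold change of each carrier in double mutants against wild type (whiskers SE) over 6 libraries, without wild type 30, and over 12 libraries with the proximal tubule score as covariate, with filled marks for adjusted p under 0.05. No mark is filled over 6 libraries, 5 are filled without wild type 30 and 3 with the score as covariate.

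The score was then used as a covariate over all 12 libraries, to compare carrier levels between genotypes at equal proximal tubule markers. In this edgeR fit 3305 of 16260 genes passed (20.3%), among them 3 carriers. The log2 fold change in double mutants was 0.44 for Slc22a12 (SE 0.085, adjusted p 0.00443, range over the alternatives 0.00443 to 0.711), 0.42 for Slc22a2 (SE 0.11, adjusted p 0.0182, range 0.014 to 0.750) and 0.40 for Slc22a6 (SE 0.12, adjusted p 0.0347, range 0.0119 to 0.767). These differences were smaller than those without the covariate. All 3 double mutants were above wild type 37 and 55 for each of these genes. Wild type 30 was above double mutant 29 for each, and above double mutant 24 for Slc22a2. Slc47a1 (0.24), Slc26a1 (0.33) and Slco1a6 (1.20) did not pass, and Slc22a5 (-0.041), Slc22a8 (-0.30) and Slc22a4 (-0.475) had negative estimates. Over the 11 libraries other than wild type 30, 1974 genes passed (12%) with the same 3 carriers, Slc22a2 at 0.55, Slc22a6 at 0.51 and Slc22a12 at 0.44. Wild type 30 was singled out for its proximal tubule levels, so these calls add no independent support to those over 12 libraries. The score comes from the same libraries and may itself differ with genotype.

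Of 26 further carriers and pumps of organic ions, 24 were tested by edgeR in double mutants against wild type, of which 4 rose and 1 fell (6.31% and 7.40% among all genes). The estimates of 21 of the 24 were positive, with a median log2 fold change of 0.57. Without wild type 30, 13 of the 24 passed as higher and 1 as lower (12.2% and 8.89% among all genes), with a median of 0.87 and 21 positive, and the limit given above for leaving out that library holds here as well. Slc22a7, an organic anion carrier, was at 6.74, 3.94 and 2.25 CPM in wild type 30, 37 and 55. In double mutants 24, 27 and 29 it was at 12.98, 16.6 and 13.6. All 3 double mutants were thus above wild type (log2 fold change 1.74, SE 0.35, edgeR adjusted p 0.0201). Slc22a13 (1.08, adjusted p 0.0306), Slc22a3 (1.40, adjusted p 0.0373) and Slco2b1 (0.77, adjusted p 0.0107) also rose by edgeR, each in 3 of 3 double mutants, and Slc22a3 did not pass without wild type 30 (1.26). Slco4c1, which the proximal tubule carries on its basolateral side, fell by 0.75 (adjusted p 0.0298 by edgeR) and was at 4.598, 5.02 and 5.06 CPM in double mutants against 9.89, 8.10 and 6.73 in wild type. Slc22a13, Slc22a6, Slc26a1 and Slco1a6 stand in the study's own gene table, which was chosen on these libraries, so that their direction there is not independent.

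Of 9 genes for coupled transport and its scaffold, Slc9a3r1, a scaffold of brush border carriers, passed as higher (0.32, edgeR adjusted p 0.0327, 3 of 3 double mutants above wild type), and the median was 0.44. Of 7 tubule transcription factors 0 passed, with a median of 0.23. The 13 proximal tubule markers had 0 genes past the test and a median of 0.56. Without wild type 30, 9 of these 13 markers passed as higher (median 1.03), as did 7 of the 9 scaffold and coupled transport genes (median 0.87) and 3 of the 7 factors (median 0.55), against 12.2% of all genes. That library was singled out for its proximal tubule levels, so these counts say nothing about the genotype.

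Markers of other cell types differed between double mutants and wild type as well. All 6 stroma markers rose (median log2 fold change 1.72), from summed levels between 3710 and 3927 CPM in wild type to between 10754 and 13019 in double mutants. Of 4 cap mesenchyme markers Gdnf and Cited1 fell (median -1.41), and of 4 podocyte markers 3 rose (median 0.47). Of 5 loop of Henle markers Cldn16 rose (median 0.52), and of 8 liver markers Fgg, Alb, Ahsg and Ttr rose (median 1.51). These liver genes were low, with Alb between 0.669 and 1.09 CPM in wild type and between 3.02 and 15.9 in double mutants. Alb also varied in the other genotypes, from 0.369 to 21.4 CPM in Hoxa-/- Hoxc+/- and from 2.17 to 24.6 in Hoxa+/- Hoxc-/-. Among markers of distal tubule (4, median -0.022), collecting duct (5, median -0.14), endothelium (4, median 0.22), erythroid cells (3 tested, median 0.76) and adrenal cortex (2 tested, median 0.63), 0 passed by edgeR. Without wild type 30 Cldn16 and Fgg no longer passed, Slc12a1 of the loop of Henle, Slc12a3 of the distal tubule and Pecam1 of endothelium passed as higher, and the calls in stroma, cap mesenchyme and podocyte lists were the same. Whether these shifts in marker levels bear on the carrier levels was not tested.

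The comparison of Hoxa-/- Hoxc+/- with wild type concerns kidneys labelled as homozygous mutant at Hoxa9 to Hoxa11 with 1 wild type set of Hoxc genes. Slc22a6 was at 227 ± 181 CPM, Slc22a12 at 65.8 ± 48.4 and Slco1a6 at 92.2 ± 62.7, and for all 9 carriers the difference between the means was smaller than the SD within Hoxa-/- Hoxc+/-. Library 20 was the lowest of its group in all 9 carriers, and libraries 31 and 33 stood above wild type 37 and 55 for each carrier other than Slc22a4. Markers of other cell types set library 20 apart as well. Its summed level was 471 CPM for podocyte (1087 and 1026 in 31 and 33) and 570 for loop of Henle (1100.5 and 971). For cap mesenchyme it was higher, at 351 (190 and 167), and for stroma it lay between them, at 5183 (5472 and 4102). Whether this bears on its carrier levels was not tested. The highest over the lowest of the 3 libraries was 14.9-fold for Slc26a1 and 9.15-fold for Slc22a6. By edgeR 0 of 15789 genes passed (0%) and 360 had an unadjusted p under 0.05, while DESeq2 called 22 and limma 1. Of the carriers 0 passed and 0 had an unadjusted p under 0.05, their median was 0.22 beside 0.031 for all genes, and the largest estimate was 1.25 (SE 0.63) for Slco1a6. For 0 of 9 carriers were the groups apart, against 8.35% of genes.

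Leaving out wild type 30 gave 0 genes (0%; 307 at an unadjusted p under 0.05), and leaving out Hoxa-/- Hoxc+/- 20 gave 8 (0.0501%) with 0 carriers. Without both, 2787 of 15878 genes passed (17.6%), with 6 carriers (Slc26a1, Slco1a6, Slc47a1, Slc22a2, Slc22a12 and Slc22a6). Both libraries were picked for their proximal tubule levels after the data were seen, so this count says nothing about the genotype.

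Hoxa+/- Hoxc-/- kidneys keep 1 wild type set of Hoxa genes and carry only mutant Hoxc9 to Hoxc11. Library AC38 was the highest of its group in all 9 carriers, with Slc22a6 at 227 ± 146 CPM, Slc22a12 at 85.5 ± 35.8 and Slc26a1 at 51.0 ± 34.8 as group means. By edgeR 376 of 15902 genes passed (2.36%), with 0 carriers, of which 0 had an unadjusted p under 0.05, and DESeq2 called 1309 genes and limma 158, each with 0 carriers. The carriers had a median of 0.33 beside 0.014 for all genes, with 1.08 (SE 0.83) for Slco1a6, 0.69 (SE 0.64) for Slc26a1 and 0.55 (SE 0.40) for Slc22a12. For 0 of 9 were the groups apart, against 26.7% of genes. Without wild type 30, 549 genes passed (3.39%) with 0 carriers. With the score as covariate 941 passed (5.79%), including Slc22a12 at 0.39 (SE 0.082, edgeR adjusted p 0.0189, from 0.0189 to 0.956 over 15 alternatives). For Slc22a12 all 3 Hoxa+/- Hoxc-/- libraries were above wild type 37 and 55, and wild type 30 was above AC110 and AC115. With the score and without wild type 30, 354 passed (2.15%) with 0 carriers. Leaving out wild type 37 or 55, or Hoxa+/- Hoxc-/- AC110 or AC115, gave 60, 70, 63 and 99 genes, and the separate run cannot be told apart from the genotype.

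By their labels, double mutants differ from Hoxa-/- Hoxc+/- kidneys in the last Hoxc copy, but the groups may also differ at Hoxa11, so this comparison does not isolate that copy. Means of Slc22a6 (315 ± 95.7 against 227 ± 181 CPM) and Slc22a12 (107 ± 23.4 against 65.8 ± 48.4) were higher in double mutants and overlapped. By edgeR 0 of 15764 genes passed (0%) and 1787 had an unadjusted p under 0.05, while DESeq2 called 554 and limma 1. Of the carriers 0 passed and 0 had an unadjusted p under 0.05, the median was 0.42 beside -0.014 for all genes, and 0 of 9 had groups apart, against 23.0% of genes. Without Hoxa-/- Hoxc+/- 20, 687 genes passed (4.30%) with 0 carriers. With the score as covariate 1782 passed (11.0%), and Slc22a12 was the 1 carrier, at 0.45 (SE 0.086, edgeR adjusted p 0.00824, from 0.00824 to 0.958 over 15 alternatives). For this gene all 3 double mutants were above Hoxa-/- Hoxc+/- 20 and 31, and Hoxa-/- Hoxc+/- 33 was above double mutants 24 and 29.
The counts that follow are from the edgeR fits of 6 libraries without a covariate. In the 3 comparisons other than double mutant against wild type, 0 genes of the carrier, scaffold, factor and proximal tubule lists passed there. Of the markers of other cell types, Col3a1 (0.52) and Lum (1.08) of stroma rose in Hoxa+/- Hoxc-/- kidneys.

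Most of the carriers lie beside relatives on their chromosomes. Slc22a3, 76.5 kb from Slc22a2, was low (1.09 ± 0.289 CPM in wild type, n = 3) and was not high in wild type 30 (0.849). Slc22a21, between Slc22a5 and Slc22a4 and 2.78 kb from the latter, was at 3.49 ± 0.284 CPM in wild type. Slc47a2 lies 0.539 kb from Slc47a1 and stayed between 0.0255 and 0.270 CPM in all libraries, near the floor. The same held for Slco1a1 (0 to 0.131 CPM) and Slco1a5 (0 to 0.212), 139 kb and 48.0 kb from Slco1a6, and Slco1a4 lay between 0.176 and 5.25. Slco1a6 was above these 3 relatives in every library, and Gm6614, 73.5 kb away, was not looked at. The authors removed reads with more than 1 position, and whether this lowered the counts of relatives unequally was not tested.

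**Figure D4:**
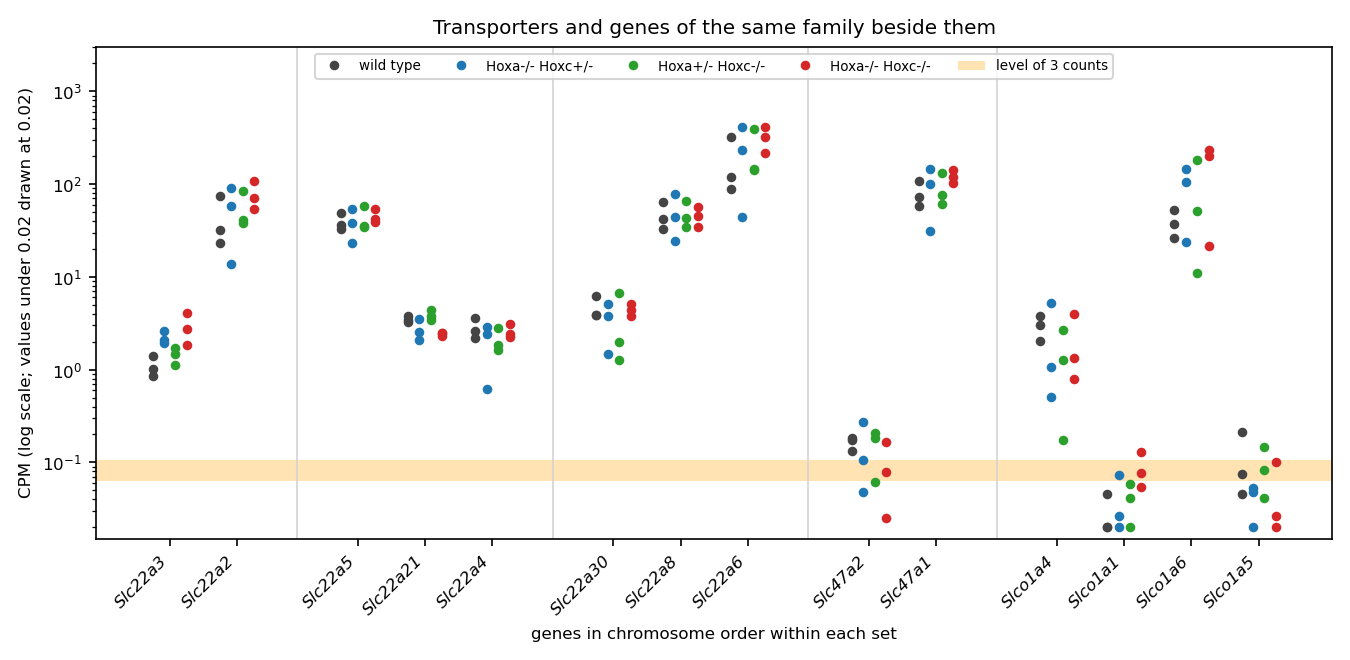
Levels (CPM, log scale, values under 0.02 drawn at 0.02) of carriers and genes of the same family near them in each of the 12 libraries, in chromosome order within 5 sets, with the band marking the floor of 3 counts. Slc47a2, Slco1a1 and Slco1a5 sit at or near the band beside abundant Slc47a1 and Slco1a6.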

How the data were processed

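Paired-end reads of 75 bases from 12 libraries were, per the submitters' processing notes, aligned to mm10 by the authors, who removed reads with more than 1 position and quantified genes. The deposited values used here are expected counts (81.6% not whole, tolerance 1e-06), rounded to whole numbers, and the log2 values that the authors scaled and centred on each gene's median. Genes kept by filterByExpr (minimum count 10, total 15) were tested with edgeR 4.0.16 (TMM, quasi-likelihood F test) in R 4.3.3 over the 6 libraries of each of 4 comparisons, p-values being adjusted by the Benjamini-Hochberg method over every gene in the fit (threshold 0.05). All 9 carriers passed the filter in each comparison. Tables and plots used Python 3.11.15, pandas 2.3.3, numpy 2.4.6 and matplotlib 3.10.9. Log2 CPM used a prior count of 2, and RPKM used exon lengths of GENCODE release M21. Positions and promoters are from RefSeq, build GRCm38.

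Alternatives planned at the start were RLE size factors, library size alone, DESeq2 1.42.0, no filter, all 12 libraries or the 9 of 1 run in the fit, Xist as covariate, limma 3.58.1 on the deposited log2 values, and leaving out each library in turn. Added after seeing the data were the proximal tubule score as covariate, with and without wild type 30, and leaving out both wild type 30 and Hoxa-/- Hoxc+/- 20. Total counts ranged from 28616877 to 47067903. Between replicate pairs, chi-square per degree of freedom ran from 14.8 to 278, well above counting error. The steps were tested on simulated data.

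Named genes are the 9 carriers, genes past the test in lists of other organic ion carriers and pumps, coupled transport and scaffold and tubule transcription factors, family neighbours on the chromosome, and the 8 genes most like the carriers in profile among those with a mean of at least 1 CPM. Markers covered proximal tubule, loop of Henle, distal tubule, collecting duct, podocyte, cap mesenchyme, stroma, endothelium, liver, erythroid cells and adrenal cortex. Of the erythroid markers Hbb-bt was not found. Members and lists were chosen with earlier results of these data known. Of the symbols, 92 are listed more than once, 0 of them carriers.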

Additional observations from a re-analysis of the deposited data

How the results depend on the processing

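Of 567 carrier fold changes under the alternatives, 496 kept their direction and side of the threshold, 21 newly passed it, 0 dropped below it, which was fixed beforehand since 0 carriers passed in the 4 comparisons, and 50 changed sign, 26 of them on leaving out 1 library. The cause was not tested for any of these. Genes called in double mutants against wild type numbered 3380 by DESeq2, 1215 by limma, 1190 with all 12 libraries in the fit, 690 with 9 libraries of 1 run, 991 with Xist and 3305 with the score. For Hoxa-/- Hoxc+/- against wild type they numbered 22 by DESeq2, 1 by limma, 2 with 12 libraries, 6 with the score, 2 with the score over 11 libraries and 2787 without both wild type 30 and Hoxa-/- Hoxc+/- 20. For Hoxa+/- Hoxc-/- against wild type they numbered 1309 by DESeq2, 158 by limma, 149 with 12 libraries, 130 with Xist and 941 with the score. For double mutants against Hoxa-/- Hoxc+/- they numbered 554 by DESeq2, 1 by limma, 1 without a filter, 540 with 12 libraries, 181 with 9 libraries of 1 run, 641 with Xist and 1782 with the score. Carriers called numbered 1 by DESeq2, 3 with the score and 3 with the score over 11 libraries in double mutants against wild type, 6 without both libraries in Hoxa-/- Hoxc+/-, 1 with the score in Hoxa+/- Hoxc-/- and 1 with the score in double mutants against Hoxa-/- Hoxc+/-.

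Sign changes in log2 fold change with the score over 12 libraries were Slc22a12 -0.011 in Hoxa-/- Hoxc+/-, Slc22a5 -0.041 in double mutants, and Slc22a8 -0.061 and Slc47a1 -0.0055 in Hoxa+/- Hoxc-/-, each against wild type. Over 11 libraries they were Slc22a12 -0.0078 in Hoxa-/- Hoxc+/-, Slc22a5 -0.055 in double mutants, and Slc22a5 -0.0020, Slc22a8 -0.034, Slc47a1 -0.074 and Slco1a6 -0.25 in Hoxa+/- Hoxc-/-. With Xist they were Slc22a12 -0.39, Slc22a2 -0.19, Slc22a6 -0.092, Slc22a8 -0.095, Slc26a1 -0.39 and Slc47a1 -0.23 in Hoxa-/- Hoxc+/-, and Slc22a8 -0.0076 in Hoxa+/- Hoxc-/-. By limma they were Slc22a12 -0.14 and Slc22a8 -0.018 in Hoxa-/- Hoxc+/- and, for Slc22a8, 0.024 in double mutants against wild type and 0.042 against Hoxa-/- Hoxc+/-. With RLE size factors Slc22a8 was 0.00056 in double mutants, and without both libraries Slc22a4 was 0.15 and Slc22a5 0.40 in Hoxa-/- Hoxc+/-.

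On leaving out 1 library in turn, genes called ranged from 535 to 3386 in double mutants against wild type, from 0 to 8 in Hoxa-/- Hoxc+/-, from 60 to 549 in Hoxa+/- Hoxc-/- and from 0 to 687 in double mutants against Hoxa-/- Hoxc+/-, and carriers called in double mutants against wild type from 0 to 5. Log2 fold changes in double mutants against wild type ranged from -0.26 to 0.11 for Slc22a4 and from -0.21 to 0.29 for Slc22a8. In Hoxa-/- Hoxc+/- they ranged from -0.43 to 0.68 for Slc22a12, -0.27 to 0.99 for Slc22a2, -0.37 to 0.21 for Slc22a5, -0.35 to 1.13 for Slc22a6, -0.41 to 0.395 for Slc22a8, -0.26 to 1.32 for Slc26a1 and -0.27 to 0.62 for Slc47a1. In Hoxa+/- Hoxc-/- they ranged from -0.13 to 0.98 for Slc22a2, -0.17 to 0.30 for Slc22a5, -0.29 to 1.13 for Slc22a6, -0.25 to 0.34 for Slc22a8, -0.22 to 0.46 for Slc47a1 and -0.32 to 1.60 for Slco1a6. In double mutants against Hoxa-/- Hoxc+/- they ranged from -0.014 to 0.74 for Slc22a4, -0.39 to 0.41 for Slc22a8 and -0.10 to 1.11 for Slc26a1. The limits are 3 libraries per genotype, whole kidneys whose proximal tubule marker levels vary, a separate run for Hoxa+/- Hoxc-/- and embryo sex. The labels leave sex out, and by Xist and Ddx3y it differs between libraries. All 3 wild type libraries lack Xist RNA beyond 0.138 CPM. All carriers lay above 3 counts in every library, and whether depth affected the calls was not tested.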
